A study of Mus musculus with 16 samples.

Results

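The response of mouse skin cells to stretch was compared between leukocytes and the other cells of the skin, as the difference of 2 effects: stretched minus control in the immune fraction, minus stretched minus control in the stromal fraction. All 16 samples of the series entered, in 4 groups of 4 taken by the fraction named in the title and by the treatment. The immune stretched group held CD45-positive cells taken 6 h after the skin had been stretched by hypobaric pressure, and the immune control group held CD45-positive cells of unstretched skin. The stromal stretched and stromal control groups held the CD45-negative cells after the same treatments. All samples were mouse skin; the sources used here give no strain, sex, age or genotype and do not say whether samples came from separate animals. The p-values therefore measure the spread between samples, which may be technical. A positive value means that the log2 fold change of stretched over control was larger in the immune than in the stromal fraction, either because the gene was higher after stretch in immune cells or because it was lower in stromal cells.

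Stretch acts on cells through their adhesions to the matrix and to each other, through the actin cytoskeleton and through stretch-gated channels such as Piezo1, which admit calcium. Fibroblasts, keratinocytes and endothelial cells are anchored and bear such load directly, while macrophages, dendritic cells and mast cells of the dermis also carry mechanosensitive channels. Known early responses of skin cells include immediate early genes, NF-kB targets, cytokines and matrix genes. In bulk RNA, fewer cells of a type and less RNA per cell cannot be told apart, and this holds for every gene group below.

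Total counts ran from 7018743 to 20095580 in the immune stretched libraries and from 2645421 to 6662268 in the immune controls. They ran from 21955174 to 26944965 in the stromal stretched libraries and from 13563586 to 20467010 in the stromal controls, so that stretched libraries were deeper in both fractions, without overlap. *Ptprc*, the gene of CD45 used for the sort, had 389 to 703 CPM (CPM being read counts scaled to the TMM library size) in the immune stretched libraries, 219.8 to 612 CPM in the immune controls, 0.918 to 3.39 CPM in the stromal stretched libraries and 0.0644 to 1.30 CPM in the stromal controls. Immune control 4, stromal stretched 7 and stromal stretched 8 stood apart: they detected 35303, 35821 and 32977 genes, against 20429 to 25955 in the other 13, and held 5942, 408 and 200.3 CPM on olfactory and vomeronasal receptor genes, against 17.8 to 68.7 CPM. Immune stretched 2 held the most neutrophil marker reads, 33763 CPM over 12 genes. Results that rest on these libraries are also given without them.

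The difference of effects was spread over many genes, of which no single one passed. Of 18295 genes tested, 0 (0%) passed for the difference of effects (edgeR quasi-likelihood F test, Benjamini-Hochberg adjusted p under 0.05), the smallest adjusted p being 0.0573. At an unadjusted p under 0.05 stood 4232 genes, of which 2481 (13.6% of those tested) had a positive and 1751 (9.57%) a negative difference. Without immune control 4 and stromal stretched 7 and 8 this count was 1854 of 18853 genes tested. It was 1830 of 13523 with all libraries thinned to the shallowest and 2763 of 18295 with detected genes as a covariate. With DESeq2 it was 4816, and with single libraries left out it ran from 3139 to 5745. Of these 4232 genes, 2132 had a positive immune and a negative stromal effect and 1606 the reverse, while 368 were positive in both fractions and 126 negative in both. Selection by the difference favours opposite signs, so these counts are no support for opposite responses. Among genes at an unadjusted p under 0.05 in both fractions, 199 were positive in both and 236 negative in both. Of the same genes, 181 were positive in the immune and negative in the stromal fraction, and 117 the reverse. The median standard error of the difference was 0.62 on the log2 scale. DESeq2 called 1625 genes in the same libraries, and limma-voom with sample quality weights, which give libraries that vary more less weight, called 1453. They shared 854, which were 52.5% of the DESeq2 calls and 58.8% of the limma-voom calls, with 634 positive and 220 negative.

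In the same fit 667 genes (3.65%) passed for the immune effect alone, with 557 (3.04%) higher and 110 (0.601%) lower in immune stretched than in immune control libraries, and 0 (0%) passed for the stromal effect, whose smallest adjusted p was 0.127. The split was 413 higher and 183 lower with RLE scale factors and 345 and 243 with upper-quartile factors. With each fraction filtered, scaled and fitted on its own 8 libraries, an alternative chosen after seeing the data, 0 of 14183 genes were called in the immune fraction (smallest adjusted p 0.134, edgeR; 2467 at an unadjusted p under 0.05) and 800 of 16074 in the stromal fraction, 329 higher and 471 lower. Below, rose and fell refer to the immune calls of the fit over 16 libraries. For the named genes these calls held under 5 to 27 of 29 alternatives, so some are fragile. At an unadjusted p under 0.05 the immune effect was positive in 14.7% and negative in 9.57% of the tested genes, and the stromal effect in 7.62% and 8.76%. The 557 genes that rose in the immune fraction had a median log2 fold change of 1.33 there and of -0.03 in the stromal fraction, where 286 of them had a negative value. The 110 that fell had medians of -1.87 and -0.36. Of the 667 genes, 540 had an unadjusted p under 0.05 for the difference.

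**Figure D1:**
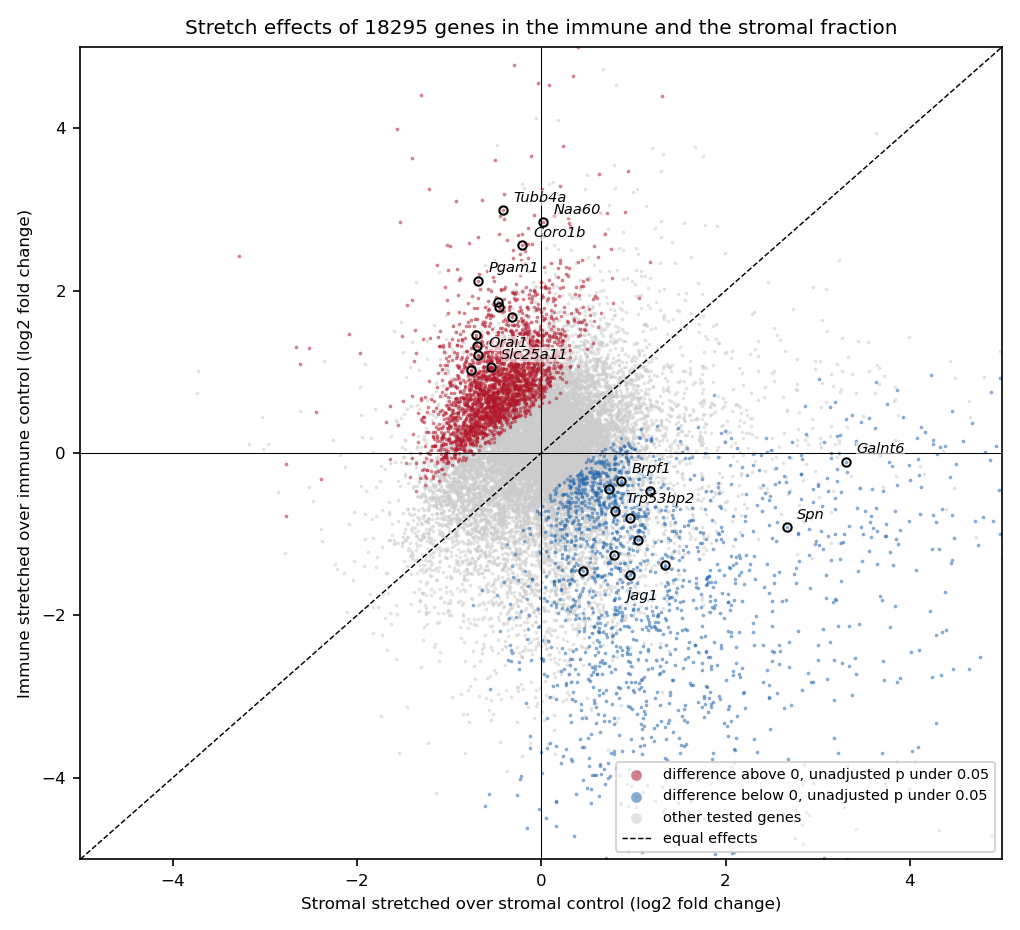
Stretch effects of each tested gene, as log2 fold change of stretched over control in the immune fraction (vertical axis) and in the stromal fraction (horizontal axis). Red and blue points are the 2481 genes with a positive and the 1751 with a negative difference at an unadjusted p under 0.05, grey points the other genes, open circles the 24 genes named by rule and the dashed line equal effects; 120 genes lie outside the axes. Most red points lie at the upper left and most blue points at the lower right, where the effects have opposite signs (2132 and 1606 genes). Selection of these points by the difference favours opposite signs.

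The 12 genes with the smallest p and a positive difference, of those with a mean of at least 10 CPM in some group, all had an adjusted p of 0.0573 for the difference, so none passed. All 12 rose in the immune fraction, where each immune stretched library lay above each immune control. In the stromal fraction 11 of the 12 had negative values, 6 of them with every stromal stretched library below every control. Since they were chosen by the p of this contrast, neither their direction nor the separation of their groups is support for it. The share of all tested genes with such separation was not counted.

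Among genes with opposite signs and an unadjusted p under 0.05 in both fractions, the 4 with the smallest p for the difference were *Yipf3*, *Mif4gd*, *Slc25a11* and *Orai1*. *Orai1* (ENSMUSG00000049686, chr5:123015074-123030456, plus strand in GRCm38) encodes the pore of the store-operated calcium channel, through which leukocytes refill calcium after receptor signals. It had 87.03, 127, 85.1 and 105 CPM in the immune stretched libraries and 44.9, 23.5, 49.7 and 56.97 CPM in the immune controls. It had 17.95, 20.9, 13.7 and 15.1 CPM in the stromal stretched libraries and 25.6, 26.02, 28.7 and 28.3 CPM in the stromal controls. All immune stretched values were thus above the immune controls, and all stromal stretched values below the stromal controls. The log2 fold changes were 1.20 ± 0.25 (SE) in immune and -0.68 ± 0.25 in stromal cells, a difference of 1.88 ± 0.35 with a 95% interval of 1.15 to 2.62.

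*Slc25a11* (ENSMUSG00000014606, chr11:70644196-70647479, minus strand) encodes the mitochondrial carrier that exchanges oxoglutarate for malate. It had 75.95, 87.9, 104 and 91.4 CPM in immune stretched libraries against 39.6, 34.2, 39.3 and 59.2 CPM in immune controls, and 52.7, 51.03, 46.1 and 57.3 CPM in stromal stretched libraries against 65.3, 91.8, 76.7 and 69.2 CPM in stromal controls. Neither pair of groups overlapped, and the difference of effects was 1.61 ± 0.29 (0.99 to 2.22). *Yipf3* (ENSMUSG00000071074, chr17:46248080-46252537, plus strand), a Golgi membrane protein, had 62.997, 62.98, 70.9 and 73.8 CPM against 24.9, 15.2, 28.7 and 39.6 CPM in the immune fraction (stretched against control) and 104, 83.3, 61.98 and 93.1 CPM against 126, 149, 125 and 155 CPM in the stromal fraction. Its groups were again separate in both fractions, in opposite directions, with a difference of 2.02 ± 0.36. *Mif4gd* (ENSMUSG00000020743, chr11:115607918-115612969, minus strand), a partner of the histone mRNA-binding protein SLBP, had 104 ± 10.7 CPM (SD) in immune stretched, 37.9 ± 16.5 in immune control, 23.1 ± 3.21 in stromal stretched and 37.7 ± 5.48 in stromal control libraries, a difference of 2.16 ± 0.39.

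The other 8 also rose in the immune fraction. The largest difference, 3.40 ± 0.55, was that of *Tubb4a*, a beta-tubulin. It had 1.87 to 7.65 CPM in immune stretched and 0.247 to 1.02 CPM in immune control libraries. Its stromal stretched and control libraries held 23.8 to 40.2 and 38.6 to 59.8 CPM. With at most 1.02 CPM in the immune controls, its immune effect rests on low counts, and it was not tested in the immune fraction's own fit. *Naa60*, an N-terminal acetyltransferase of the Golgi, had 10.5, 16.8, 17.9 and 16.9 CPM in immune stretched and 2.65, 1.39, 0.988 and 3.34 CPM in immune control libraries. Its stromal groups, 16.05 to 19.7 CPM stretched and 13.5 to 20.4 CPM control, overlapped, with a stromal effect of 0.02 ± 0.29 and a difference of 2.81 ± 0.43. *Coro1b*, a coronin that regulates branched actin, had 161, 139.9, 159 and 172 CPM in immune stretched and 31.02, 9.004, 20.3 and 46.5 CPM in immune control libraries, again separate, with log2 effects of 2.56 ± 0.35 in immune and -0.20 ± 0.33 in stromal cells.

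*Pgam1*, the glycolytic phosphoglycerate mutase, had an immune effect of 2.12 ± 0.38 and a stromal effect of -0.69 ± 0.35. *Dnal4*, a dynein light chain, and *Uck1*, the uridine-cytidine kinase of pyrimidine salvage, had differences of 2.33 ± 0.41 and 2.26 ± 0.40. The tetraspanin *Tspan31* had 1.99 and *Cby1*, an antagonist of beta-catenin, 1.78. The stromal effect of *Cby1*, -0.76 ± 0.23, was the lowest of the 12, and its groups too were separate in both fractions. Over the 12 genes the difference ran from 1.61 to 3.40 with all libraries and from 1.44 to 3.50 without immune control 4 and stromal stretched 7 and 8. It kept its sign in all of them under all 28 alternatives. All 12 were called by DESeq2 and by limma-voom, and 11 with upper-quartile factors. Of the 12, 0 were called with RLE factors, length and GC offsets, title numbers as replicate blocks or detected genes as a covariate. Without the libraries just named, 0 were called as well. These settings refit the counts by which the genes were chosen, so they are no independent support.

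The 12 genes with the smallest p and a negative difference had adjusted p values from 0.0605 to 0.0746 and did not pass. All 12 had negative immune and positive stromal values. *Jag1* and *Camsap1* fell in the immune fraction; the other 10 immune effects were not called. Among genes with opposite signs at an unadjusted p under 0.05, *Jag1*, *Trp53bp2*, *Tfrc* and *Arap3* had the smallest p. In 9 of the 12 every stromal stretched library lay above every stromal control, and in 6 every immune stretched library lay below every immune control. These 12 were also chosen by the p of this contrast, so neither direction nor separation is support for it. For these counts too, the share of all tested genes with such separation was not counted.

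*Jag1* (ENSMUSG00000027276, chr2:137081456-137116644, minus strand) encodes a ligand of Notch receptors. It had 8.999, 8.94, 7.01 and 10.8 CPM in immune stretched and 34.3, 30.01, 23.7 and 13.7 CPM in immune control libraries, and 11.2, 17.6, 24.5 and 29.4 CPM in stromal stretched and 16.4, 8.55, 9.99 and 7.47 CPM in stromal control libraries. The immune groups were separate and the stromal ones overlapped at 1 library each, stromal stretched 5 and stromal control 1. The log2 effects were -1.50 ± 0.35 in immune (adjusted p = 0.0302, edgeR) and 0.97 ± 0.34 in stromal cells, a difference of -2.47 ± 0.49 (-3.50 to -1.44).

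*Trp53bp2* (ENSMUSG00000026510, chr1:182409172-182462432, plus strand) encodes ASPP2, a partner of p53 in apoptosis. It had 33.4, 28.1, 24.3 and 28.2 CPM in immune stretched libraries against 65.3, 48.9, 39.8 and 33.4 CPM in immune controls, and 40.8, 49.1, 52.4 and 52.05 CPM in stromal stretched libraries against 32.95, 27.5, 31.9 and 19.1 CPM in stromal controls. Of these 4 genes it was the only one in which both pairs of groups were separate, in the immune fraction by a narrow margin, with a difference of -1.52 ± 0.33. *Tfrc* (ENSMUSG00000022797, chr16:32608920-32632794, plus strand), the transferrin receptor through which cells take up iron, averaged 22.8 ± 3.12 CPM in immune stretched, 39.9 ± 12.2 in immune control, 11.6 ± 1.65 in stromal stretched and 5.95 ± 1.82 in stromal control libraries (difference -1.77 ± 0.39). *Arap3* (ENSMUSG00000024451, chr18:37972628-37998969, minus strand), a GTPase-activating protein, had 17.7 to 27.6 CPM in immune stretched and 30.6 to 56.1 CPM in immune control libraries, but only 1.24 to 3.15 and 0.623 to 1.52 CPM in stromal stretched and control libraries, so its stromal effect of 1.05 ± 0.36 rests on low counts.

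The remaining 8 included genes of transcription, translation and the cell surface. *Brpf1*, a scaffold of histone acetyltransferase complexes, had an immune effect of -0.35 ± 0.18, with 20.5 to 21.9 CPM in stromal stretched and 10.1 to 12.4 CPM in stromal control libraries, a narrow and separate pair of ranges. *Rrp12*, a ribosome assembly factor, had an immune effect of -1.25 ± 0.35 and a stromal one of 0.79 ± 0.34; *Cluh*, which binds mRNAs of mitochondrial proteins, had -0.44 ± 0.20 and 0.74 ± 0.20. *Gramd4* had -0.47 ± 0.25 in immune and 1.18 ± 0.25 in stromal cells.

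*Camsap1*, which binds microtubule minus ends, and *Enpp1*, which makes pyrophosphate from ATP, were high in immune control 4 (17.1, 38.3, 14.6 and 14.9 CPM for *Camsap1* and 3.47, 21.9, 8.90 and 5.99 CPM for *Enpp1* in immune controls 3 to 6). Without that library their differences were -1.43 and -1.98, against -1.91 and -2.73 with it. *Galnt6*, which starts mucin-type O-glycosylation, and *Spn*, the leukocyte sialoglycoprotein CD43, were mainly leukocyte transcripts. *Galnt6* had 11.4 to 23.7 CPM in immune stretched and 10.4 to 27.999 CPM in immune control libraries, against 0.321, 0.624, 0.389 and 0.204 CPM in stromal stretched and 0.0761, 0.0531, 0 and 0 CPM in stromal control libraries. *Spn* had 11.3 to 20.6 CPM in immune stretched and 18.8 to 37.2 CPM in immune control libraries, against 0.138, 0.178, 0.740 and 0.272 CPM in stromal stretched and 0, 0, 0.0644 and 0.113 CPM in stromal control libraries. For each, 2 of 4 stromal controls held no read, so the fitted folds of -3.41 and -3.58 depend on the prior count. Over the 12 genes the difference ran from -3.58 to -1.17 with all libraries and from -3.92 to -1.18 without the 3 libraries that stood apart, with no change of sign under the 28 alternatives. These alternatives refit the counts by which the genes were chosen, so the stable sign is no independent support.

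**Figure D2:**
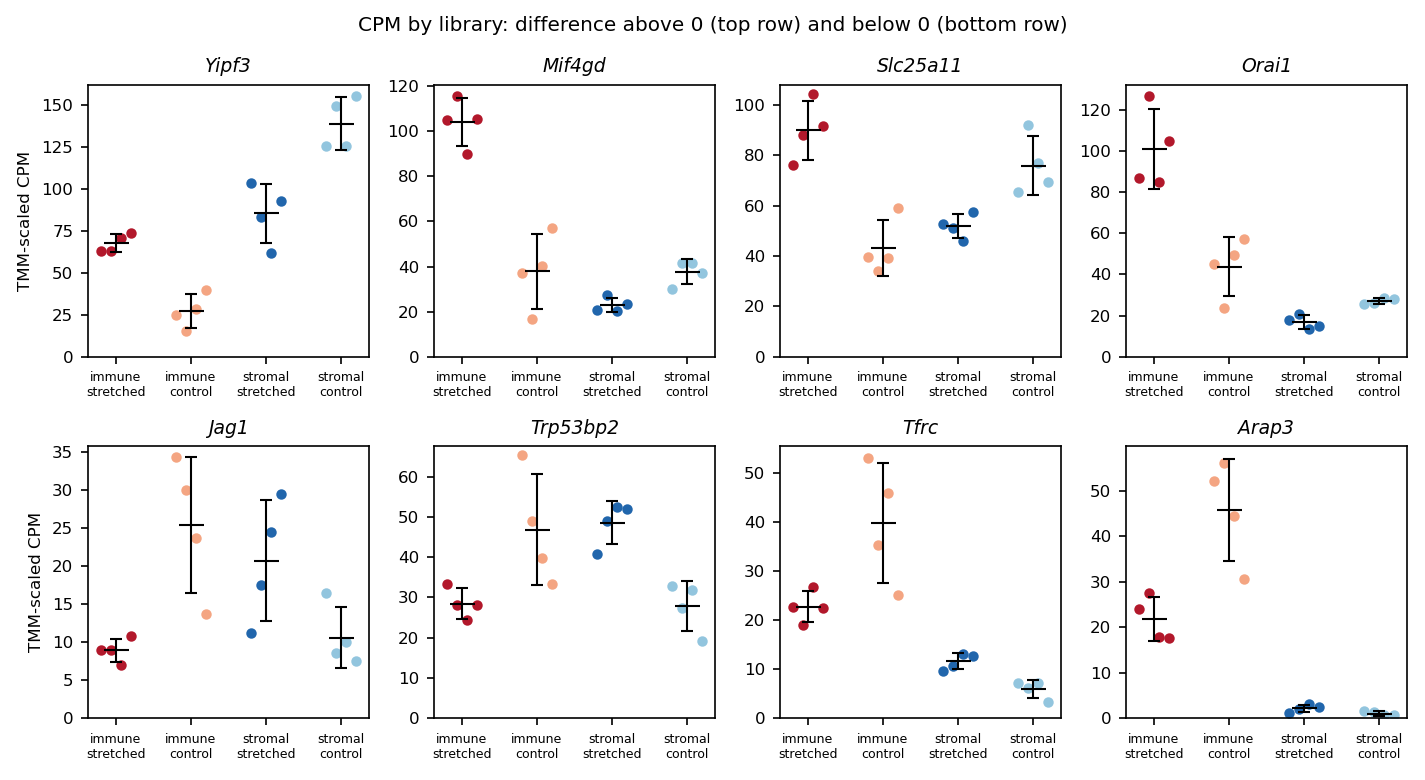
TMM-scaled CPM of the 8 genes with opposite stretch effects, by library; points are libraries, bars the mean and SD of 4 libraries. In the top row immune stretched libraries lie above immune controls and stromal stretched below stromal controls; in the bottom row *Jag1*, *Trp53bp2*, *Tfrc* and *Arap3* have lower immune stretched and higher stromal stretched means.

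The promoters of 4 of these 8 genes are shown because their transcripts had opposite stretch effects in the 2 fractions, 2 in each direction. Each is the 250 bases before the gene's start in RefSeq (GRCm38.p6), read 5′ to 3′ on the gene's strand, with capitals marking the GC box (GGGCGG on either strand) and the AP-1 site (TGANTCA on either strand). Starts differ between RefSeq and GENCODE, so that the *Slc25a11* window lies inside the GENCODE gene given above and the *Jag1* window overlaps that gene in part. *Orai1* lies at chr5:123014824-123015073 on the plus strand, *Slc25a11* at chr11:70647040-70647289 on the minus strand, *Jag1* at chr2:137116521-137116770 on the minus strand and *Trp53bp2* at chr1:182408917-182409166 on the plus strand.
Orai1: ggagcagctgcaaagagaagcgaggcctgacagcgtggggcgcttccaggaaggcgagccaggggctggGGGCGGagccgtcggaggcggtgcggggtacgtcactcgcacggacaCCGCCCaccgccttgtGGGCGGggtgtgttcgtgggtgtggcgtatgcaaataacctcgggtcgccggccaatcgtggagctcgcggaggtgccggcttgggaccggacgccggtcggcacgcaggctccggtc
Slc25a11: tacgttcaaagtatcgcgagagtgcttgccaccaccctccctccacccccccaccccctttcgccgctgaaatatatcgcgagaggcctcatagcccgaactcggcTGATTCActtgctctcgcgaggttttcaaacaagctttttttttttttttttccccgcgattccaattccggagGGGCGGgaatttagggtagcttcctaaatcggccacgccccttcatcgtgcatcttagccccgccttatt
Jag1: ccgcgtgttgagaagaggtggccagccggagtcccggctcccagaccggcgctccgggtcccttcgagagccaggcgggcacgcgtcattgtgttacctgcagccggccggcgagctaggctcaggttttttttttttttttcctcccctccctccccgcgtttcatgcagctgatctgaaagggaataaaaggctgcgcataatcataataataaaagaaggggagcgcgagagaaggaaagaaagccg
Trp53bp2: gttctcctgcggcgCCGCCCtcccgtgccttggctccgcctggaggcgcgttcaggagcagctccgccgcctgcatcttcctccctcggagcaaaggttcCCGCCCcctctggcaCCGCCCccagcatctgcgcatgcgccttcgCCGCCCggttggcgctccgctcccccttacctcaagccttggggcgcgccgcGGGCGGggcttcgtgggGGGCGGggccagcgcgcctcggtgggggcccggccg
The *Orai1* window held 3 GC boxes, that of *Slc25a11* 1 GC box and 1 AP-1 site, that of *Jag1* neither and that of *Trp53bp2* 6 GC boxes. Of 32851 promoter windows of the same length, 32.7% held a GC box and 6.7% an AP-1 site. Among the 24 genes, 21 had an entry: a GC box was found in 5 of 11 with a positive and 8 of 10 with a negative difference, and an AP-1 site in 1 of 11 and 1 of 10. A gene was counted if any of its windows held the motif, and some genes had several windows. These counts of genes are therefore not directly comparable with the shares of windows. A match is a run of letters, not a bound site.

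Gene groups were described by 42 lists of cell type, stress and signalling genes with 645 tested members. For all genes tested the median log2 value was 0.03 for the difference, 0.05 for the immune and 0.04 for the stromal effect. The first of these was -0.19 with RLE and -0.24 with upper-quartile scale factors, and ran from -0.24 to 0.20 over the 28 alternatives, taken over the same genes where they were tested. List medians under any alternative or omission are therefore given relative to all genes, with this median of the same fit subtracted, as is every list value below that is called relative. In the monocyte and the suprabasal keratinocyte list the median of the members' differences (-0.52 and 0.07) has the opposite sign to the difference between the 2 medians. No list member passed for the difference of effects, so the counts below are of members at an unadjusted p under 0.05, to be read against 13.6% positive and 9.57% negative over all genes. Members named below are among the 4 of their list with the smallest p for the difference. They are thus extremes of their list for this contrast, and their values are no support for it.

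**Figure D3:**
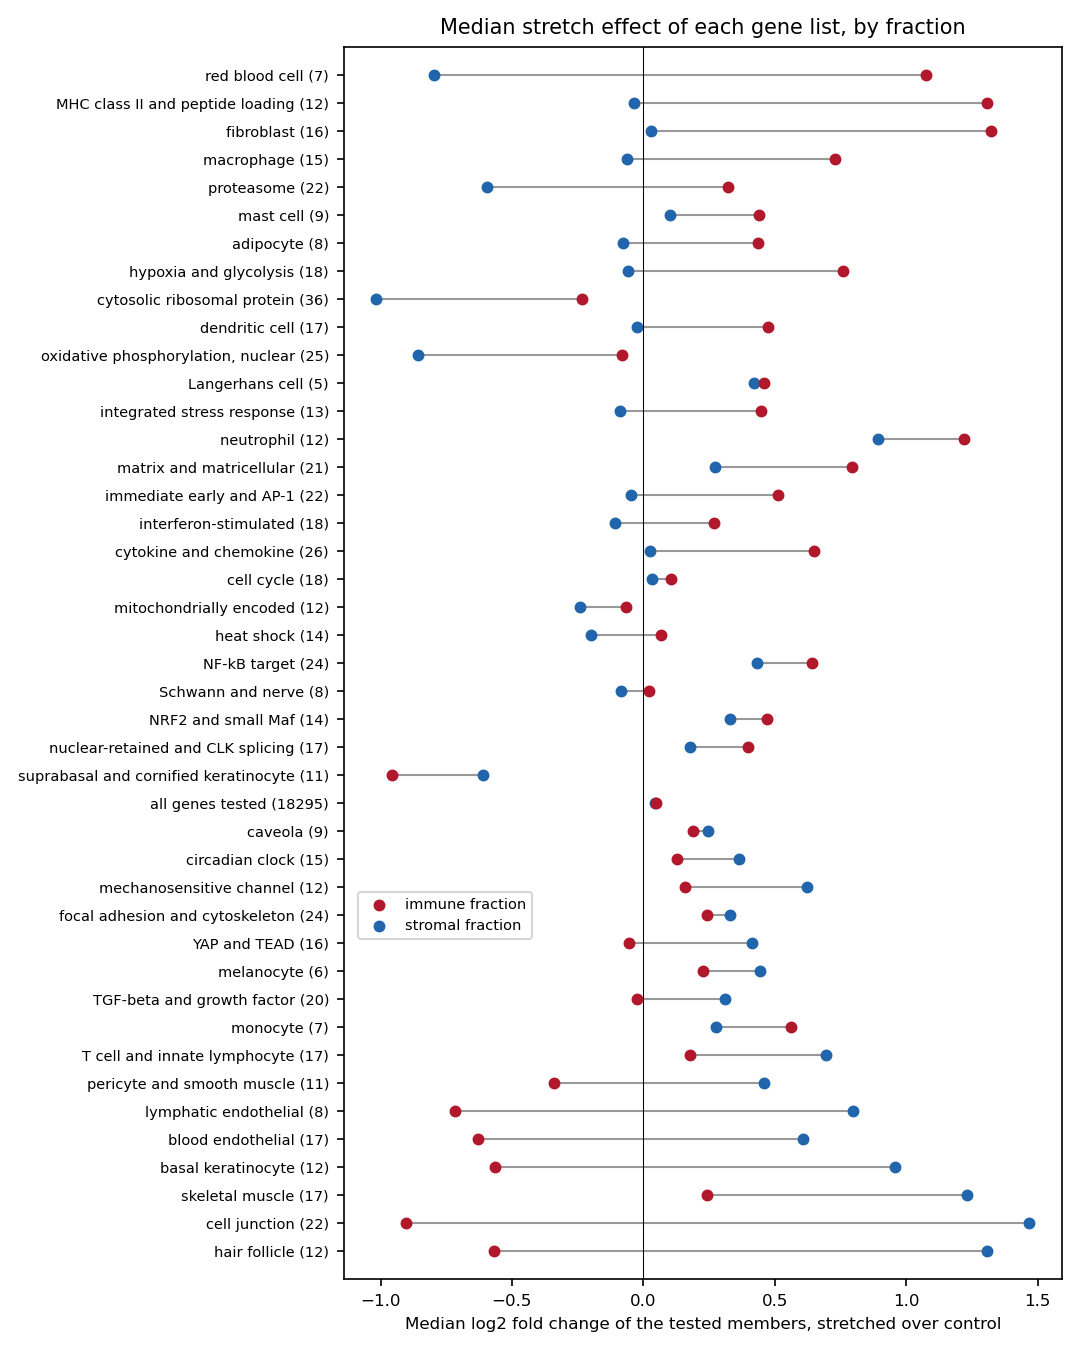
Median log2 fold change of stretched over control for the tested members of each list (number in brackets), in the immune (red) and the stromal fraction (blue), ordered by the median difference. Red blood cell, class II and fibroblast lists stand at the top, with immune medians of 1.07, 1.31 and 1.32, and hair follicle and cell junction lists at the bottom, with stromal medians of 1.31 and 1.47.

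Genes of protein synthesis, protein breakdown and respiration had positive differences in nearly every member, with stromal medians below 0. All 36 cytosolic ribosomal protein genes tested had negative stromal effects (median -1.02), against 26 of 36 in the immune fraction (median -0.23). There 2 fell, against 0.601% of all genes tested, and 5 were negative and 0 positive at an unadjusted p under 0.05. Scaled to library totals, the list summed to 10679 to 13209 CPM in immune stretched and 16055 to 23646 CPM in immune control libraries. In the stromal fraction it summed to 5532 to 9512 CPM stretched and 10635 to 17698 CPM control, so both fractions were lower after stretch. For the difference, 13 of 36 were positive and 0 negative at an unadjusted p under 0.05, with a list median of 0.76. *Rpl10* had 485, 514, 466 and 437 CPM in immune stretched and 547, 232, 415 and 398 CPM in immune control libraries, 309, 316, 173 and 251 CPM in stromal stretched and 583, 521, 527 and 399 CPM in stromal control libraries. Only the stromal groups were separate, and the difference was 1.21 ± 0.38, or 0.73 without immune control 4 and stromal stretched 7 and 8. *Rpl15* had effects of 0.52 ± 0.29 in the immune and -0.77 ± 0.29 in the stromal fraction. Pseudogenes near-identical to ribosomal protein genes could take or add reads, so these values are uncertain.

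Of 25 nuclear genes of oxidative phosphorylation, 25 had a positive difference (median 0.70), 9 of them at an unadjusted p under 0.05. In the stromal fraction 23 of 25 had negative values (median -0.86), 17 of them at that threshold. Scaled to library totals, the list summed to 4824 to 6357 CPM in immune stretched and 5840 to 8934 CPM in immune control libraries. The stromal sums were 3257 to 4885 CPM stretched and 4412 to 7134 CPM control. In both fractions the stretched range was lower at both ends and overlapped the control range. In the immune fraction 15 of 25 were negative (median -0.08) and 2 rose, against 3.04% of all genes tested. These were the complex III subunit *Uqcrc1* and the ATP synthase subunit *Atp5b*, with immune effects of 1.22 ± 0.31 and 1.38 ± 0.35, with stromal values of -0.32 ± 0.30 and -0.22 ± 0.35. Both immune calls held under 11 of 29 alternatives, and neither held in the immune fraction's own fit. The complex II subunit *Sdhb* had 171, 183, 209 and 165 CPM in immune stretched against 151, 42.2, 90.4 and 124 CPM in immune control libraries, and 153, 113, 90.6 and 128 CPM in stromal stretched against 165, 261, 223 and 170.2 CPM in stromal control libraries. It was separate in both fractions, upward in immune and downward in stromal cells, with a difference of 1.59 ± 0.44. The 12 mitochondrially encoded genes had a median difference of 0.29 and 0 at an unadjusted p under 0.05.

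Of 22 proteasome subunits, 14 had a positive and 0 a negative difference at an unadjusted p under 0.05 (median 0.99), with 20 of 22 immune values above 0 and 20 of 22 stromal values below 0. Scaled to library totals, the subunits summed to 3744 to 5140 CPM in immune stretched and 3229 to 5552 CPM in immune control libraries. The stromal sums were 2539 to 4615 CPM stretched and 4215 to 5569 CPM control. *Psma7*, of the core particle, had 141 to 312 CPM in stromal stretched and 359 to 447 CPM in stromal control libraries, and *Psmc3*, an ATPase of the cap, had effects of 0.60 ± 0.32 in immune and -0.58 ± 0.32 in stromal cells. Relative to all genes, the list medians were 0.73 for ribosomal proteins, 0.67 for oxidative phosphorylation and 0.97 for the proteasome. Without the 3 libraries that stood apart they were 0.19, 0.16 and 0.35, and without immune control 4 alone the first 2 were 0.44 and 0.34. The differences of *Rpl15*, *Psma7* and *Psmc3* without the 3 libraries were 0.77, 0.59 and 0.70.

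Of 18 hypoxia and glycolysis genes, 3 rose in the immune fraction, against 3.04% of all genes tested, and all 3 were glycolytic enzymes. In this list (median difference 0.78) 6 members were positive and 1 negative at an unadjusted p under 0.05. *Gapdh* rose in the immune fraction, with 306, 1011, 476 and 396 CPM in stretched against 209, 114, 176 and 211 CPM in control libraries, while stromal libraries held 275 to 539.8 CPM stretched and 417 to 644 CPM control. The immune groups were separate, with immune stretched 2 highest, and the difference was 2.04 ± 0.50, or 1.38 without that library. The other 2 were *Eno1* (immune effect 1.70 ± 0.43, stromal -0.54 ± 0.42) and *Aldoa* (1.37 ± 0.32 and -0.13 ± 0.31). *G6pdx*, the first enzyme of the pentose phosphate pathway and a target of NRF2, rose there to 54.6, 104, 79.1 and 71.4 CPM in immune stretched libraries, against 12.7, 7.39, 23.97 and 24.1 CPM in immune controls, and had a difference of 2.70 ± 0.55 (adjusted p = 0.0653, edgeR). *Ndrg1*, a hypoxia-induced gene, went the other way, with stromal stretched libraries at 173 to 217 CPM, above stromal controls at 89.1 to 152 CPM, and a difference of -0.94 ± 0.34. Relative to all genes the list median was 0.76, and it was 0.30 without stromal control 4, 0.44 without immune stretched 2, 0.47 without immune control 4, 0.39 without the 3 libraries that stood apart and 0.18, the lowest of the 28 alternatives, with limma-voom.

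Most NF-kB targets had positive values in both fractions. Of 24 NF-kB targets, 22 were positive in the immune fraction (median 0.64) and 21 in the stromal fraction (median 0.43), and the median difference of 0.19, or 0.16 relative to all genes, had the other relative sign in 8 of 28 alternatives. *Bcl3*, a nuclear IkB protein, rose in the immune fraction (181 to 279 CPM in immune stretched against 36.02 to 107 CPM in immune control libraries) and had a stromal effect of 0.42 ± 0.30 and a difference of 1.20 ± 0.43. *Nfkbia*, the inhibitor IkB-alpha, had 0.57 ± 0.35 in the immune and -0.54 ± 0.35 in the stromal fraction, and its difference of 1.11 was 0.55 without the 3 libraries that stood apart.

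Among 22 immediate early and AP-1 genes (median difference 0.42) 6 were positive and 0 negative at an unadjusted p under 0.05. *Dusp1*, a phosphatase that switches off MAP kinases, rose in the immune fraction, with 3984, 7377, 5655 and 5638 CPM in immune stretched against 3009, 1182, 2899 and 2236 CPM in immune control libraries, and stood at 4163 to 4788 CPM in stromal stretched and 3670.0 to 6195 CPM in stromal control libraries. The separation was thus in the immune fraction, and the difference was 1.31 ± 0.48. The immune call of *Dusp1* held under 5 of 29 alternatives. *Ier2* had 0.91 ± 0.35 in immune and -0.60 ± 0.35 in stromal cells, where each stretched library lay below each control, and the transcription factors *Atf3* and *Fos* had differences of 1.34 ± 0.51 and 1.23 ± 0.50, that of *Fos* being 0.76 without stromal control 4. The list median relative to all genes was 0.40, and 0.14 without immune control 4, 0.21 without the 3 libraries that stood apart and 0.07 with length and GC offsets.

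Of 26 cytokine and chemokine genes 4 were positive and 0 negative at that threshold, with a median difference of 0.35. This was 0.32 relative to all genes, and 0.01 without stromal control 4, 0.17 without immune control 4, 0.05 without the 3 libraries and -0.04 with detected genes as a covariate. *Il18*, a cytokine of the interleukin-1 family, had 24.7, 22.1, 43.996 and 34.2 CPM in stromal stretched and 44.7, 60.8, 53.4 and 99.3 CPM in stromal control libraries, which were separate, and a difference of 1.76 ± 0.52. *Cxcl16* had separate immune groups (108 to 258 CPM in immune stretched and 43.6 to 106 CPM in immune control libraries) and a difference of 1.36 ± 0.45, which was 0.50 with all libraries thinned to the shallowest. The eosinophil chemokine *Ccl11* had a difference of 2.33, with 22.7 to 154 CPM in immune stretched and 10.4 to 68.8 CPM in immune control libraries, below its 404 to 561 CPM in stromal stretched and 351 to 1208 CPM in stromal control libraries.

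Of 14 NRF2 and small Maf genes 3 were positive and 1 negative at that threshold (median difference 0.13, or 0.11 relative to all genes, with the other relative sign in 10 of 28 alternatives). *Mafk*, a small Maf partner of NRF2, rose in the immune fraction (116, 117, 110.2 and 158 CPM in immune stretched against 30.6, 20.3, 34.8 and 47.2 CPM in immune control libraries), and its stromal stretched libraries (237 to 276 CPM) also lay above every stromal control (106 to 155 CPM), with a difference of 0.84 ± 0.34, or 0.52 without stromal control 1. The sulfiredoxin gene *Srxn1* rose in the immune fraction by 1.56 ± 0.29 and had a stromal value of 0.13 ± 0.28, whereas *Gclc*, which limits glutathione synthesis, had an immune value of 0.18 ± 0.23, with 72.2 to 101 CPM in stromal stretched and 35.997 to 43.6 CPM in stromal control libraries. Of 13 genes of the integrated stress response 2 were positive and 0 negative (median 0.45; relative to all genes 0.42, 0.24 without immune control 4 and -0.11 without the 3 libraries). The endoplasmic reticulum stress gene *Herpud1* rose in the immune fraction (0.96 ± 0.24, against -0.12 ± 0.24 in the stromal fraction), and the chaperone *Hspa5* had a difference of 1.08 ± 0.48, or 0.53 without stromal control 4, with an immune effect that was not called (adjusted p = 0.0732, edgeR).

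Genes of force sensing had small median differences. The 12 mechanosensitive channels tested had a median difference of -0.13, with immune and stromal medians of 0.16 and 0.62, and 1 member at an unadjusted p under 0.05. *Piezo1*, the stretch-gated calcium channel, had 44.01, 45.1, 43.03 and 42.9 CPM in immune stretched and 36.1, 44.3, 31.9 and 52.2 CPM in immune control libraries, 36.9, 52.1, 28.7 and 30.8 CPM in stromal stretched and 32.4, 19.5, 27.9 and 18.7 CPM in stromal control libraries. All groups overlapped in part, and its difference of -0.50 ± 0.34 has a 95% interval of -1.22 to 0.21, which includes 0. The 1 member was *Piezo2*, the touch channel of sensory endings: its immune controls held 12.7, 41.1, 9.64 and 7.66 CPM, and its difference of -2.20 was -1.35 without immune control 4, the highest, and -0.71 without the 3 libraries that stood apart. The YAP and TEAD list (16 members) and the caveola list (9 members) had median differences of -0.16 and 0.00, or -0.19 and -0.03 relative to all genes, with the other relative sign in 2 and 12 of 28 alternatives. The relative median of the channels, -0.15, ran from -0.76 to -0.07.

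Within the focal adhesion and cytoskeleton list (24 members, median -0.15, or -0.18 relative to all genes and -0.02 without immune stretched 2) 4 members were positive and 1 negative at an unadjusted p under 0.05. *Actg1*, cytoplasmic gamma-actin, rose to 715, 1718, 990.5 and 1094 CPM in immune stretched libraries, against 536, 204, 454 and 447 CPM in immune controls, while stromal stretched libraries at 546 to 829.7 CPM lay below stromal controls at 896 to 947 CPM. Its groups were separate in both fractions and the difference was 1.77 ± 0.45. The adhesion protein *Zyx* and the actin-binding calponin *Cnn2* rose in the immune fraction as well, by 1.47 ± 0.33 and 1.46 ± 0.36, with stromal values of -0.23 ± 0.32 and -0.31 ± 0.35. *Myl9*, the regulatory light chain of smooth muscle myosin, had 130.0, 97.9, 88.3 and 134 CPM in stromal stretched and 164, 257, 197 and 280.1 CPM in stromal control libraries, separate and lower, and a difference of 2.32 ± 0.69.

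Matrix genes had members of either sign, 4 positive and 1 negative of 21 at an unadjusted p under 0.05 (median 0.44; relative to all genes 0.42, and 0.26 to 0.70 with single libraries left out). *Tnc*, tenascin-C of strained and healing tissue, had 3.16, 7.27, 2.21 and 3.88 CPM in immune stretched and 40.002, 26.1, 0.741 and 3.48 CPM in immune control libraries, and 121, 17.9, 13.7 and 36.1 CPM in stromal stretched and 7.001, 12.6, 5.99 and 7.58 CPM in stromal control libraries. The immune groups overlapped, with immune controls 3 and 4 highest, and the stromal stretched values were all above the stromal controls, with stromal stretched 5 highest. The difference was -4.64 ± 1.20. The matricellular protein gene *Postn* rose in the immune fraction, with 132, 10.8, 142 and 199.6 CPM in immune stretched and 20.4, 20.1, 24.7 and 29.7 CPM in immune control libraries, against 868 to 1249 CPM in stromal stretched and 557 to 1188 CPM in stromal control libraries. The hyaluronan synthase *Has1* rose there too, with 402, 118, 888 and 966 CPM in immune stretched and 173, 129.5, 106 and 118 CPM in immune control libraries, against 2636 to 4317 CPM in stromal stretched and 1841 to 3786 CPM in stromal control libraries. In both genes immune stretched 2 was low and the other 3 immune stretched libraries lay above every immune control, and all immune values were below all stromal ones. *Sparc*, another collagen-binding matrix protein, had a difference of 2.13 ± 0.75. The growth factor *Tgfa*, an epidermal growth factor receptor ligand, had 1.17 to 2.50 CPM in immune stretched and 1.95 to 13.6 CPM in immune control libraries, 2.57 to 4.66 CPM in stromal stretched and 0.396 to 1.87 CPM in stromal control libraries, and a difference of -3.37 ± 0.87.

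Fibroblast markers had positive values in the immune fraction. Of 16 tested, 15 had positive immune values (median 1.32) against 8 of 16 in the stromal fraction (median 0.03), and 7 had a positive and 0 a negative difference at an unadjusted p under 0.05 (median 1.34). *Mmp2*, a gelatinase, and *Col6a1*, a collagen VI chain, rose in the immune fraction. *Mmp2* had 141, 22.9, 177 and 265 CPM in immune stretched and 41.4, 32.8, 30.4 and 33.7 CPM in immune control libraries, and 1037 to 1498 CPM in stromal stretched and 984 to 1966 CPM in stromal control libraries. Immune stretched 2 was below all immune controls, and the other 3 immune stretched libraries were above them, as for *Col6a1* (88.8, 10.8, 126 and 128 CPM in immune stretched against 24.9, 19.4, 13.6 and 26.7 CPM in immune control libraries). The Wnt antagonist *Sfrp2* had a difference of 3.54 ± 1.08 and the microfibril protein *Mfap5* of 1.89 ± 0.63, which were 2.04 and 1.20 without stromal control 4. The summed level of the 16 markers was 1498 to 10907 CPM in immune stretched and 1639 to 7704 CPM in immune control libraries, against 51641 to 70423 and 47832 to 61024 CPM in the stromal ones, so every immune library held reads of fibroblast markers. The part of fibroblast RNA in the immune values of matrix and fibroblast genes was not tested.

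Antigen presentation genes had higher immune values after stretch, none of them called. Of 12 class II and peptide loading genes 5 were positive and 2 negative at an unadjusted p under 0.05 (median 1.53; relative to all genes 1.51, and 0.61 without the 3 libraries that stood apart). At that threshold 8 of 12 immune effects were positive and 0 negative. *H2-DMb1*, a peptide exchange chain, had 655, 490.3, 962 and 929.8 CPM in immune stretched and 207, 97.2, 399.6 and 427 CPM in immune control libraries, 3.67, 7.67, 4.32 and 6.36 CPM in stromal stretched and 8.29, 7.27, 5.35 and 8.15 CPM in stromal control libraries. The immune groups were separate and the difference was 1.83 ± 0.56; its partner *H2-DMa* had 1.67 ± 0.55. *Ciita*, the class II transactivator, had 27.4 to 37.9 CPM in immune stretched and 18.98 to 40.3 CPM in immune control libraries and a difference of -2.64 that was -0.66 without the 3 libraries. Its stromal stretched libraries held 0.0459, 0.579, 3.93 and 0.918 CPM, stromal stretched 7 being highest. The lectin *Mgl2* had 2.30, and 1.36 without them. The summed level of the class II list was 21889 to 62958 CPM in immune stretched and 10831 to 24731 CPM in immune control libraries, against 56.9 to 191 CPM in stromal stretched and 69.9 to 145.7 CPM in stromal control libraries, so stromal effects of these genes rest on low counts. Macrophage, dendritic cell and mast cell lists had median differences of 1.16, 0.74 and 0.96, with 0, 1 and 0 members positive and 1, 0 and 1 negative at that threshold. These medians were 1.13, 0.71 and 0.93 relative to all genes. They were 0.40, 0.25 and -0.20 without stromal control 4, and 0.09, 0.52 and -0.19 without the 3 libraries. Neutrophil markers had 0 of 12 members at that threshold, and their relative median of 0.42 was -3.66 without immune stretched 2.

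The cell junction, skeletal muscle, hair follicle, basal keratinocyte and endothelial lists had negative median differences. All 22 cell junction genes tested had positive stromal values (median 1.47), and 15 had negative immune values (median -0.90); 0 had a positive and 11 a negative difference at an unadjusted p under 0.05 (median -2.29). *Ocln*, occludin of tight junctions, had 0.791, 0.416, 0.584 and 0.531 CPM in immune stretched and 1.43, 13.4, 0 and 1.11 CPM in immune control libraries, 0.735, 3.74, 3.43 and 5.85 CPM in stromal stretched and 2.36, 0.425, 0.515 and 0 CPM in stromal control libraries. The one high immune value was immune control 4, and the difference of -4.81 was -2.65 without it. The desmosomal cadherin *Dsc2* had -5.77, and -2.97 without it. Relative to all genes the list median was -2.31, or -1.63 without the 3 libraries and -1.39 without immune control 3, and ran from -4.68 to -1.35 over the 28 alternatives.

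All 17 skeletal muscle genes had positive stromal values (median 1.23), and 9 had a negative difference at an unadjusted p under 0.05 (median -1.67; relative to all genes -1.70, and -0.80 without the 3 libraries). *Pygm*, muscle glycogen phosphorylase, had 11.6, 4.78, 4.998 and 5.68 CPM in immune stretched and 6.12, 11.1, 2.72 and 8.22 CPM in immune control libraries, which overlapped. It had 48.9, 20.2, 51.5 and 54.8 CPM in stromal stretched and 18.6, 16.99, 9.02 and 12.9 CPM in stromal control libraries, all stretched values being higher. Its difference was -1.67 ± 0.58, or -1.06 without the 3 libraries. The myosin heavy chain *Myh1* had a difference of -2.98 ± 0.95. *Ttn*, titin, had 8.78, 93.3, 5.19 and 8.50 CPM in immune controls, and its difference of -3.41 was -1.45 without immune control 4. Muscle markers summed to 180.7 to 756 CPM in immune stretched and 124 to 648 CPM in immune control libraries, and to 1067 to 2347 CPM in stromal stretched and 605 to 1474 CPM in stromal control libraries.

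Of 12 hair follicle genes 12 had a negative difference (median -2.77; relative to all genes -2.79, and -1.04 without the 3 libraries), 5 at an unadjusted p under 0.05, and of 12 basal keratinocyte genes 12 (median -1.51; relative to all genes -1.54, and -0.92 without immune control 3), 3 at that threshold. The inner root sheath keratin *Krt25* had 1.58, 0, 0 and 0 CPM in immune stretched and 0, 3.69, 0 and 0 CPM in immune control libraries, 0.276, 13.9, 0.311 and 11.05 CPM in stromal stretched and 0, 0.0531, 0 and 0 CPM in stromal control libraries. Stromal stretched 6 and 8 stood far above all other libraries and 9 of 16 libraries held no read, so no fold is given. Trichohyalin, *Tchh*, had a difference of -3.35, and -0.77 without the 3 libraries, and the basal keratinocyte collagen *Col17a1* had -3.06 ± 1.40, which was -0.98 with limma-voom and -6.04 with the replicate block. Of 11 suprabasal and cornified genes 3 were positive and 0 negative at that threshold (median 0.07, or 0.04 relative to all genes, with the other relative sign in 21 of 28 alternatives). Loricrin, *Lor*, rose in the immune fraction with 27.6, 90.4, 74.9 and 55.6 CPM in immune stretched against 16.3, 14.1, 13.6 and 18.1 CPM in immune control libraries, and had a difference of 2.21 ± 0.71, or 1.46 without stromal control 4.

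Endothelial lists had immune medians below and stromal medians above 0. Blood endothelial markers summed to 99.2 to 477 CPM in immune stretched and 164 to 989 CPM in immune control libraries. In stromal stretched and control libraries they summed to 168 to 338 and 118 to 218 CPM. Lymphatic markers summed to 293 to 994 and 406 to 1945 CPM in the immune groups, and to 192 to 475 and 207 to 259 CPM in the stromal groups. Of 17 blood endothelial genes 4 and of 8 lymphatic genes 4 had a negative difference at an unadjusted p under 0.05, and 0 a positive one, with medians of -1.34 and -1.32. *Cdh5*, VE-cadherin, fell in the immune fraction, with 34.02, 13.1, 21.8 and 12.5 CPM in immune stretched against 156, 67.9, 26.4 and 46.5 CPM in immune control libraries. The groups overlapped, immune controls 3 and 4 being highest, and the stromal fraction held 1.79 to 3.39 CPM stretched and 1.08 to 3.80 CPM control. The lymphatic regulator *Prox1*, in which every stromal stretched library (3.74 to 6.77 CPM) lay above every stromal control (1.75 to 3.13 CPM), had a difference of -1.56 ± 0.50, or -0.80 with all libraries thinned to the shallowest. Its immune libraries held more, 9.15 to 26.8 CPM stretched and 13.6 to 37.3 CPM control, which overlapped. *Reln*, a secreted glycoprotein of lymphatic vessels, had -1.69 ± 0.61 and *Flt4*, the lymphatic growth factor receptor, -2.30 ± 0.73, which were -0.98 and -1.05 with limma-voom. *Reln* averaged 23.8 CPM in immune stretched and 44.0 in immune control libraries, against 4.22 and 2.41 in the stromal ones. *Flt4* averaged 14.2 and 25.8 CPM, against 2.92 and 1.06. Relative to all genes the medians were -1.37 for blood and -1.35 for lymphatic endothelium, and ran from -2.06 to -0.79 and from -1.97 to -0.83 over the 28 alternatives, the last without immune control 3.

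**Figure D4:**
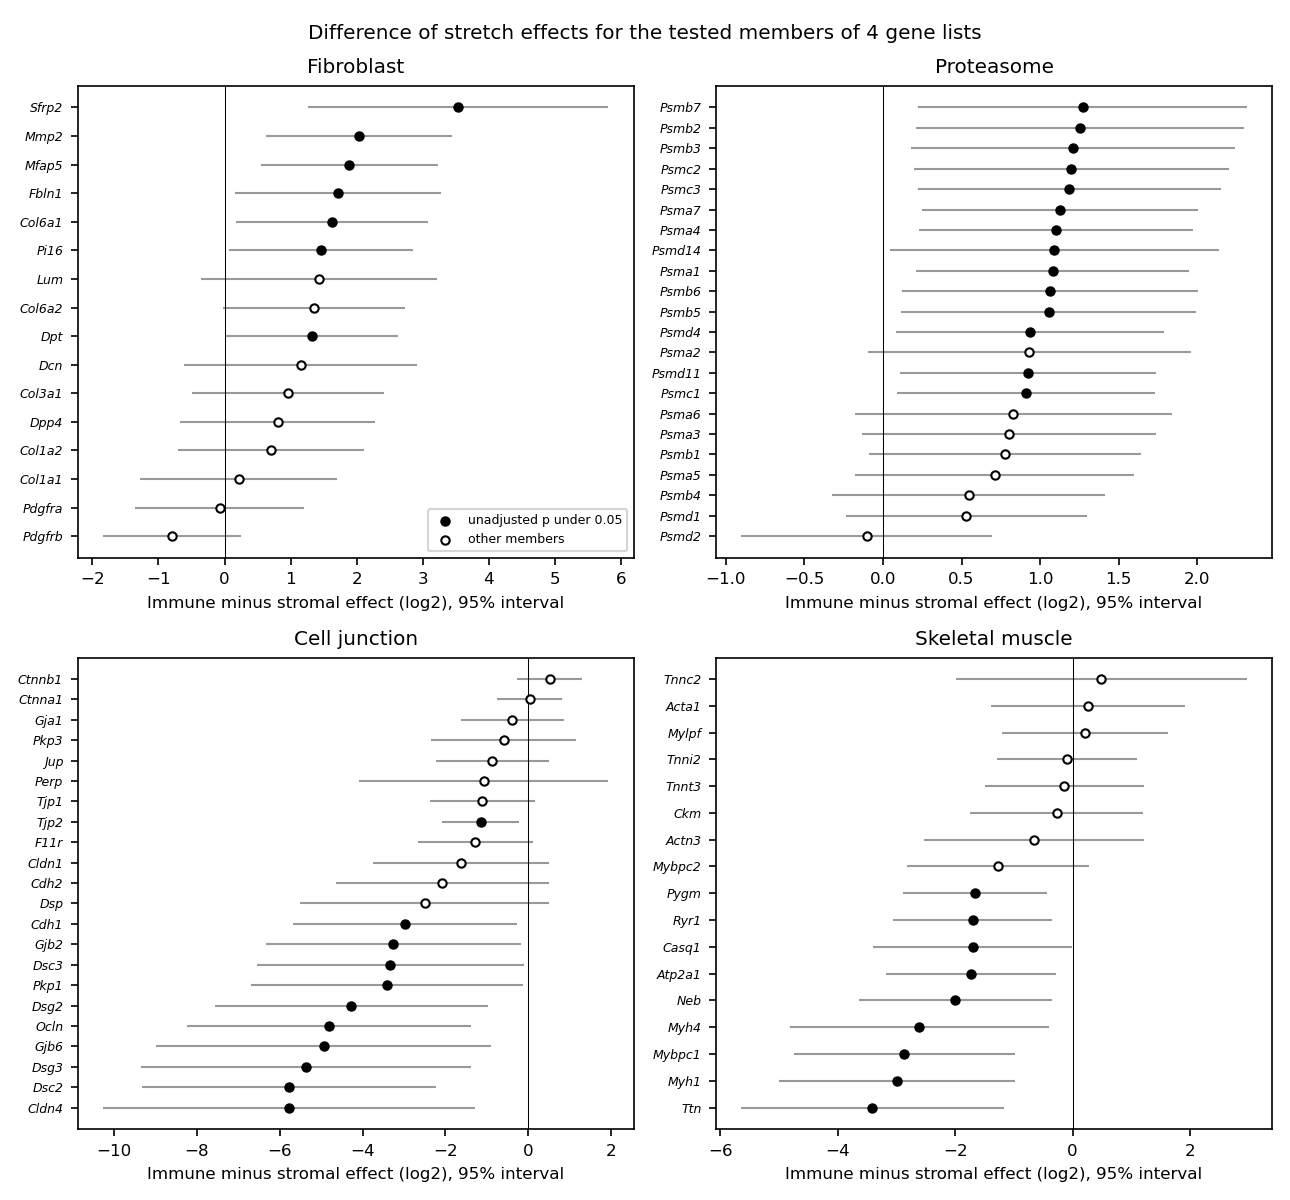
Immune minus stromal stretch effect (log2) with its 95% interval for each tested member of the fibroblast, proteasome, cell junction and skeletal muscle lists; filled points have an unadjusted p under 0.05. Filled points are 7 of 16, 14 of 22, 11 of 22 and 9 of 17, above 0 in the first pair of lists and below 0 in the second pair.

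Of the 42 lists, 12 had an immune median above and a stromal median below 0, 8 the reverse, 18 both above and 4 both below 0. Relative to all genes, the median difference kept its sign under all 28 alternatives in 22 lists, among them the ribosomal, oxidative phosphorylation, proteasome, glycolysis, class II, fibroblast, cell junction, muscle, hair follicle, basal keratinocyte and endothelial lists, and changed it under some in 20. Lists with both medians above 0 included NF-kB targets, matrix, focal adhesion and mechanosensitive channels.

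The difference of effects also moved with transcript length. Spearman's rank correlation with the longest annotated transcript, over 18291 genes that are no independent replicates, was -0.29 for the difference, -0.12 for the immune and 0.35 for the stromal effect, and with GC content 0.17, 0.17 and -0.06. Genes with a positive difference at an unadjusted p under 0.05 had a median transcript of 2107 bases, those with a negative one of 4243 bases, and all tested genes of 2959 bases. Protein-coding genes made up 95.4% of the positive and 74.2% of the negative ones, against 79.5% of the genes tested. The 12 named positive genes had transcripts of 1147 to 2814 bases and the 12 negative ones of 3743 to 7981 bases. With offsets that remove a smooth trend on length and GC content in each library, these 24 kept their signs, with ranges of 1.19 to 2.94 and -3.50 to -0.88, and list medians relative to all genes became 0.43 for ribosomal proteins, 0.65 for the proteasome, 1.09 for class II and -1.95 for cell junctions. The immune and stromal effects themselves had a Spearman rank correlation of -0.09 across genes.

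**Figure D5:**
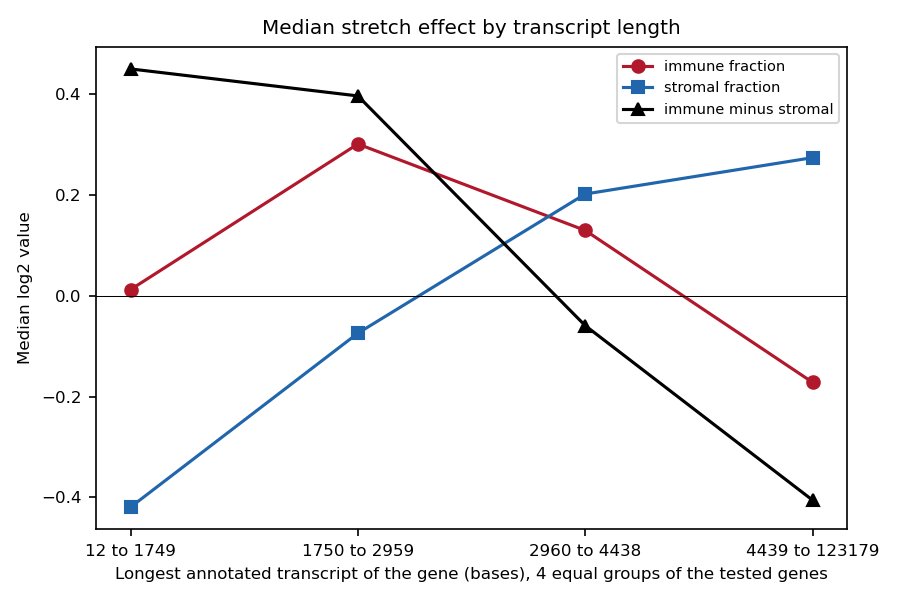
Median log2 value of the immune effect (circles), the stromal effect (squares) and their difference (triangles) in 4 equal groups of the tested genes by the length of the longest annotated transcript. The median difference was 0.45 and 0.40 in the 2 groups of shorter and -0.06 and -0.41 in the 2 groups of longer transcripts.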

How the data were processed

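CD45-positive and CD45-negative skin cells were sequenced from SMART-Seq mRNA LP cDNA in Nextera XT libraries, per the labels' protocols. Whole-number read counts per gene were deposited by the authors as 1 table of 55487 genes by 16 samples. Per the submitters' processing notes, FastQC 0.11.9, STAR and the build mm10 were used; the counting tool, its strand setting and the annotation release are unstated in the sources used here. Counts were filtered (filterByExpr, minimum count 10, minimum total 15), scaled by TMM and fitted over the 4 groups with edgeR 4.0.16 (R 4.3.3), whose quasi-likelihood F test with Benjamini-Hochberg adjustment gave the difference of effects. SE is the log2 value over the square root of F.

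Symbols, lengths and GC content came from GENCODE M21, which held 55394 of the IDs. Named genes were the 12 per direction with the smallest p for the difference and at least 10 CPM in a group, and 4 per direction with opposite effects. From each list they were taken from the up to 4 members with the smallest p for the difference. *Ptprc* was added, and predicted genes were left out. The genes and lists were chosen with earlier results of these data known. Alternatives used DESeq2 1.42.0, limma 3.58.1 (voom with sample quality weights), other scalings, filters and covariates, and omitted libraries; separate fits per fraction were chosen after seeing the data.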

Additional observations from a re-analysis of the deposited data

Results flagged for a closer look

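In 29 of 344 groups of 4 libraries (8.43%) 1 library lay far outside the range of the other 3 by Dixon's test at 95%, which by chance marks about 1 in 20 groups. Immune control 4 accounted for 9: it was high for *Camsap1* (38.3 CPM), *Ttn* (93.3 CPM), *Krt25* (3.69 CPM), *Tchh* (6.23 CPM), *Dsc2* (9.23 CPM), *Ocln* (13.4 CPM) and *Piezo2* (41.1 CPM), and for its receptor gene reads (5942 CPM) and detected genes (35303). The other immune libraries, high unless stated, were immune stretched 1 for *Naa60* (10.5 CPM, low), *Pygm* (11.6 CPM) and *Krt25* (1.58 CPM), immune stretched 2 for *Spn* (20.6 CPM) and *Nfkbia* (7167 CPM), immune stretched 8 for *Mafk* (158 CPM) and immune control 3 for *Ccl11* (68.8 CPM).

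Among stromal stretched libraries, number 7 was high for *Camsap1* (18.03 CPM), *Enpp1* (9.42 CPM), *Sfrp2* (144 CPM) and *Ptprc* (3.39 CPM), number 5 was high for *Mfap5* (1319 CPM) and number 6 was low for *Pygm* (20.2 CPM). Among stromal controls, number 4 was high for *Tubb4a* (59.8 CPM), *Mfap5* (2857 CPM), *Hspa5* (3059.5 CPM) and *Sfrp2* (394 CPM). Stromal control 1 was high for *Mafk* (155 CPM), and stromal control 2 was the one with reads of *Krt25* (0.0531 CPM) and low for receptor gene reads (17.8 CPM).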

How the results depend on the processing

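The count of genes called for the difference of effects, 0, was 25 with upper-quartile factors, 1625 with DESeq2, 1453 with limma-voom with sample quality weights (limma-voom below), 3924 with no filter on low counts (397 positive, 3527 negative), 120 with a strict filter, 2 with the replicate block and 698 without immune control 4 and immune stretched 2; single omissions gave 0 to 1495, with 1495 without immune control 6, 114 without immune stretched 2 and 29 without immune control 4. The immune count, 667, was 2278 with DESeq2, 1216 with limma-voom, 275 with no filter, 1609 with detected genes as a covariate, 0 with the replicate block, 33 after thinning to the shallowest library, 87 with length and GC offsets, 164 without immune control 4 and stromal stretched 7 and 8, 1345 without immune control 4 and immune stretched 2 and 0 in its own fraction; single omissions gave 66 (immune stretched 8) to 1622 (immune control 6), and all but those of stromal stretched 7 (533) and immune control 3 (906) moved it by over 1.5 times. The stromal count, 0, was 1291 with DESeq2, 4010 with limma-voom, 1 after thinning, 815 without immune control 4 and immune stretched 2 and 800 in its own fraction, with 0 to 1 under single omissions. Of the 8 replicate numbers in the titles, 4 mark stretched samples in one fraction and controls in the other. Whether the other numbers pair samples is not known. Same-numbered samples correlated at -0.12 to 0.16 in their deviations from the group means. Because the fractions hold different cells, these correlations cannot show whether 2 samples share an animal. No named gene's difference changed sign under the 28 alternatives, which refit the counts by which all but *Ptprc* were chosen. The immune calls of 34 named genes held under 5 to 27 of 29 alternatives. The fewest were 5 for *Dusp1*, 8 for *Lor*, 9 for *Herpud1* and 10 for *Cdh5*, *Cnn2* and *Eno1*. The most were 27 for *Coro1b*, *Mafk*, *Naa60* and *Tspan31*. The cause of these shifts was not tested. The difference of 40 of 83 named genes moved by over 1.5 times under some alternative. The shallowest library, an immune control, had 2645421 counts.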
